A study of Mus musculus with 6 samples.

Results

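The genes described here are the receptors for extracellular nucleotides and adenosine, and the surface enzyme that degrades ATP, in BV2 cells exposed to sTREM-1, the soluble form of a receptor of myeloid cells that amplifies innate immune responses. They were taken from the gene count table by their symbols. P2rx4 and P2rx7 encode ATP-gated ion channels (P2X), P2ry2, P2ry6 and P2ry14 encode G protein-coupled nucleotide receptors (P2Y), Adora2a and Adora2b encode adenosine receptors, and Entpd1 encodes the ectonucleotidase CD39. P2ry12 and P2ry13 were left aside. The list thus held 8 of the 46095 gene symbols in the table. All 8 had enough counts to enter the test, as did 14120 genes in all. BV2 is an immortalized line of mouse microglia. The CON group was untreated and the sTREM-1 group received the recombinant protein at 1 μg/mL during 6 h, with 3 libraries in each group. All libraries came from this single line, so the values describe BV2 cells and not microglia in tissue.

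Cells release ATP when they are damaged or stimulated, and purinergic receptors read it. P2X channels open on ATP and let calcium and sodium in, and P2X7 needs much higher ATP than P2X4. P2Y receptors signal through G proteins: P2Y2 responds to ATP and UTP, P2Y6 to UDP and P2Y14 to UDP-sugars. CD39 removes ATP and ADP by converting them to AMP, from which the ectonucleotidase CD73 makes adenosine, and the adenosine A2 receptors raise cyclic AMP through the Gs protein. In microglia, P2X7 is known for its link to the NLRP3 inflammasome, P2X4 for its part in neuropathic pain, and P2Y6 for the uptake of dying neurons.

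After 6 h of sTREM-1, P2ry6 was higher than in the CON group and the other 7 genes did not pass the test. The rise of P2ry6 was 2.33-fold, from a low level of 0.619 ± 0.308 to 1.45 ± 0.264 CPM (counts scaled to a common library size of 1000000; mean ± SD, n = 3 libraries per group). Among the more abundant genes, P2rx4 went from 110 ± 1.94 to 114 ± 2.47 CPM, P2rx7 from 60.4 ± 0.864 to 58.1 ± 1.15 CPM and Entpd1 from 37.3 ± 0.510 to 38.4 ± 1.82 CPM. The test was edgeR's quasi-likelihood test, with the p-value adjusted over all 14120 genes by the Benjamini-Hochberg method, and a gene was called at an adjusted p under 0.05. By this rule 30.5% of all tested genes were called, 16.5% as higher and 14.1% as lower. Of the purinergic genes, 1 of 8 (12.5%) was called, as higher, and 0 of 8 as lower. DESeq2 and edgeR's exact test also called 1 of the 8 genes, again with 0 lower, and 1 of 8 had an unadjusted p under 0.05 against 38.7% of all tested genes.

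The libraries held 40070633 to 45877107 counts. The labels describe cells grown in wells of a plate with 3 per group, and the methods give n = 4, but neither says whether each library came from an independent culture. The p-values therefore measure only the spread between these libraries, which may be technical. Of 12 microglia and macrophage markers, 11 were tested, of which 5 were higher and 1 lower (54.5%, against 30.5% of all tested genes). Their summed level was 3027 to 3059 CPM in CON and 3260 to 3330 CPM in sTREM-1 libraries, a difference that came mostly from Csf1r, at 521 CPM in CON and 753 CPM in sTREM-1. Fcer1g was lower, from 384 to 348 CPM, and Cd68 (605 and 589 CPM) and Tyrobp (300.4 and 292.6 CPM) were not called. Aif1, a defining marker, was listed at 0 in every library. Cx3cr1 was called higher, at 0.945 CPM in CON and 1.77 CPM in sTREM-1. C1qa (1.59 and 2.55 CPM), Trem2 (116 and 128 CPM) and Ptprc (346 and 371 CPM) were also called higher. The summed levels of neuron, astrocyte, T and B cell, and fibroblast markers stayed under 1 CPM. The sum of the endothelial markers was 176 to 192 CPM in CON and 223 to 229 CPM in sTREM-1, nearly all of it from Flt1, while Cldn5 was listed at 0. The sum of the oligodendrocyte markers was 25.0 to 25.9 CPM in CON and 25.7 to 29.1 CPM in sTREM-1, mostly from Cnp, with Mog listed at 0. In bulk RNA, a change in the number of cells that express a gene and a change in its RNA per cell cannot be told apart.

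Several of these genes are related in sequence and lie side by side, and reads of one might be counted for another. The sequence they share was therefore checked first. The following stretches are the longest runs of bases shared between the coding sequences of each related pair. They come from the GENCODE M21 annotation of the mouse genome build GRCm38 and are shown as a measure of likeness:
P2rx4 and P2rx7: AGGTGTGTTCCAT
P2ry2 and P2ry6: GCTTCCTGCCTTTCCAC
Adora2a and Adora2b: GCCATCACCATCAGC
The run of P2rx4 and P2rx7 is 13 bases long and the coding sequences were 70.4% identical over their aligned part. P2ry2 and P2ry6 share 17 bases, starting at base 770 of the P2ry2 and base 752 of the P2ry6 coding sequence, with 66.9% identity. Adora2a and Adora2b share 15 bases, with 73.4% identity. No stretch of 50 bases in the transcripts of P2ry2, P2ry6, P2ry14, Entpd1, Adora2a or Adora2b (0 of 1897 windows for P2ry6) occurred in another gene. In P2rx7, 70 of 4865 windows (1.44%) also belonged to Mir8115, a microRNA annotated within its exon and listed at 0 counts in every library. In P2rx4, 4 of 2653 windows (0.151%) occurred in 7 other genes. By this measure, members of this family are not near-identical copies. The sharing of reads itself was not tested.

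The genes differed widely in their level. To compare genes, CPM was divided by the length of the longest protein-coding transcript in kilobases, and the resulting CON levels were 40.9 CPM per kilobase for P2rx4, 12.2 for P2rx7, 9.49 for P2ry2, 8.83 for Entpd1, 1.58 for Adora2a, 1.54 for Adora2b, 0.510 for P2ry14 and 0.318 for P2ry6. Over the 6 libraries, P2rx4 stood at the 86.0th percentile of the 12813 tested genes with a known length, P2rx7 at the 56.5th, and P2ry6 at the 10.7th. Within CON, the ranges of Adora2a and Adora2b overlapped, so the order of this pair lay within their spread. The CON range of P2ry2, 9.10 to 9.90, lay just above that of Entpd1, 8.70 to 8.93, whereas in sTREM-1 the ranges of these genes overlapped. P2ry14 was at 0.505 to 0.513 in CON, above P2ry6 at 0.176 to 0.489, and in sTREM-1 P2ry14 ran from 0.417 to 0.734 and P2ry6 from 0.609 to 0.880, so that their ranges overlapped there. The order P2rx4, P2rx7 and then the other genes held in each of the 6 libraries. With the union of all annotated exons as the length, an alternative chosen after the data were seen, P2rx4 was at 15.7 and P2ry14 at 0.114 CPM per kilobase in CON, and P2rx4 was still the highest. By this length P2ry6, at 0.214, stood above P2ry14 in CON, and Adora2b, at 1.54, stood above Adora2a, at 1.34.

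**Figure D1:**
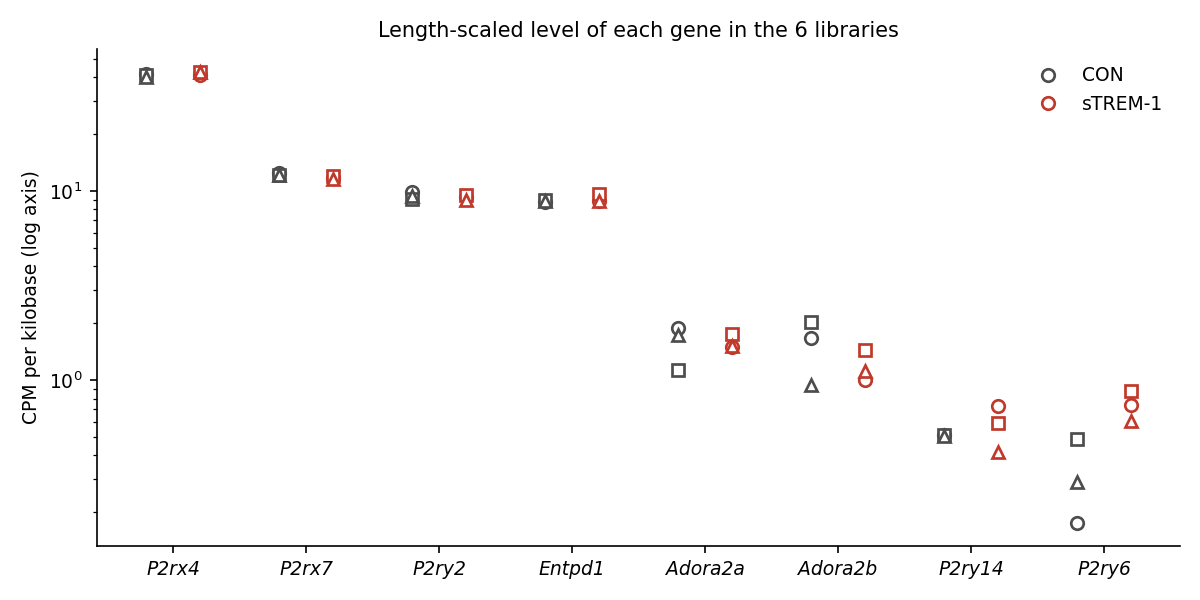
Level of each gene in CPM per kilobase of the longest protein-coding transcript (log axis) in the 3 CON libraries (grey) and the 3 sTREM-1 libraries (red), with circles, squares and triangles for replicates 1, 2 and 3. P2rx4 lay near 41 in all 6 libraries, P2rx7, P2ry2 and Entpd1 lay near 10, and the remaining genes lay at about 2 or lower.

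By class, the 2 P2X channels made up 79.8% ± 0.502 (SD, n = 3) of the summed CPM per kilobase of the 7 receptors in CON and 80.1% ± 0.884 in sTREM-1. The 3 P2Y receptors made up 15.5% ± 0.234 and 15.8% ± 0.717, almost all from P2ry2. Another P2Y receptor, P2ry1, is not among the 7. It was at 19.9 CPM in CON, against 28.6 CPM for P2ry2. The adenosine receptors contributed 4.69% ± 0.563 in CON and 4.13% ± 0.456 in sTREM-1. Each of these shares differed between the groups by about the spread between libraries or less. The SD covers that spread only, and the shares depend on the length chosen. With the union of all annotated exons, CON levels were 15.7 CPM per kilobase for P2rx4, 10.1 for P2rx7 and 7.27 for P2ry2. Adora2a was then at 1.34 and Adora2b at 1.54. Shares by class were not computed for that length.

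Of the ATP-gated channels, P2rx4 lies on chromosome 5 at chr5:122707544-122729738 on the plus strand, 16111 bases downstream of P2rx7 at chr5:122643911-122691432 on the same strand. P2rx4 encodes a channel found on the surface and in lysosomes, and had 112, 111 and 108 CPM in CON replicates 1 to 3 and 111, 115 and 115 CPM in sTREM-1 replicates 1 to 3. The groups overlapped, since CON replicate 1 was above sTREM-1 replicate 1. The log2 fold change was 0.04 ± 0.03 (SE), with an adjusted p of 0.391 by edgeR's quasi-likelihood test, and the 95% interval of the fold change ran from 0.983 to 1.07. With 4427 to 5056 counts per library, P2rx4 was the most precisely measured gene of the group.

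P2rx7, whose channel responds to high ATP, had 61.3, 59.7 and 60.2 CPM in CON and 57.8, 59.3 and 57.1 CPM in sTREM-1 replicates 1 to 3. All 3 sTREM-1 libraries were below all 3 CON libraries, with a gap between the lowest CON and the highest sTREM-1 library that was smaller than the SD of either group. The log2 fold change was -0.06 ± 0.04 (SE), with an adjusted p of 0.308 by edgeR's quasi-likelihood test, and the fold change had an interval of 0.909 to 1.02. Groups that do not overlap were found for 40.7% of all tested genes and for 2 of the 8 purinergic genes (25%), which were P2rx7 and P2ry6. The ratio of P2rx7 to P2rx4 within a library, which does not depend on library scaling, was 0.295 to 0.304 per kilobase in CON and 0.272 to 0.286 in sTREM-1. The difference of the log2 ratios was -0.10, with p = 0.1 in a two-sided exact permutation test, the smallest p that 3 against 3 libraries allow, and 0.15 after adjustment over the 3 ratios tested.

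**Figure D2:**
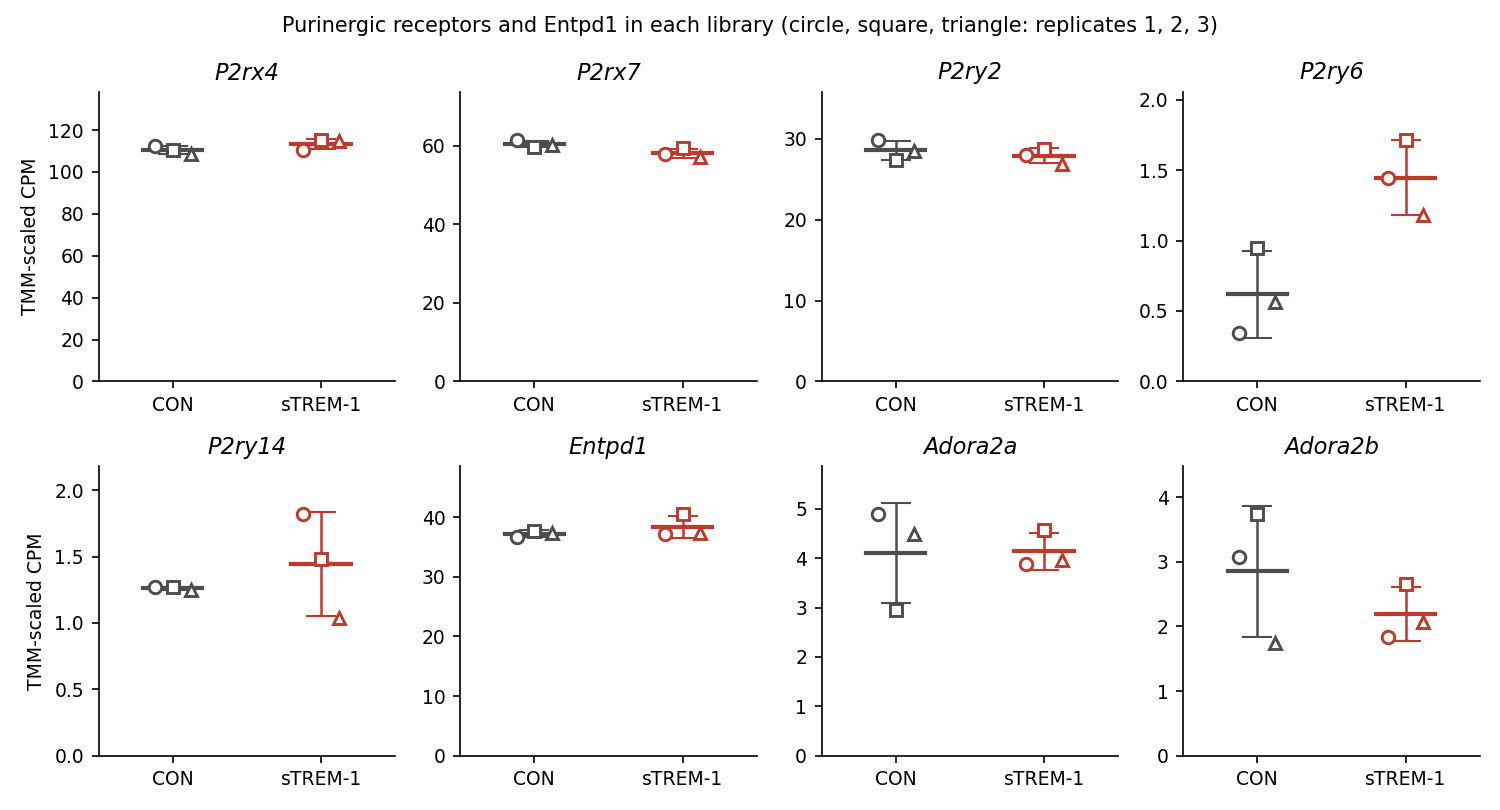
CPM of each gene in every library, with CON in grey and sTREM-1 in red. Circles, squares and triangles are replicates 1, 2 and 3, thick lines are means, thin bars are the SD (n = 3), and each axis starts at 0. The P2ry6 libraries lay between 0.342 and 0.951 CPM in CON and between 1.18 and 1.71 CPM in sTREM-1, while CON and sTREM-1 libraries of the other genes lay close together or overlapped.

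Of the nucleotide receptors, P2ry2 and P2ry6 are neighbours on the minus strand of chromosome 7, at chr7:100996568-101012866 and chr7:100937630-100974649, 21918 bases apart. P2ry2 had 29.8, 27.4 and 28.5 CPM in CON and 28.0, 28.8 and 26.9 CPM in sTREM-1. The groups overlapped, with CON replicate 1 the highest and sTREM-1 replicate 3 the lowest library. Its log2 fold change was -0.03 ± 0.06 (SE), with an adjusted p of 0.704 by edgeR's quasi-likelihood test and an interval of the fold change from 0.902 to 1.06.

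P2ry6 had 14, 39 and 23 counts in CON replicates 1 to 3 and 66, 73 and 47 counts in sTREM-1 replicates 1 to 3. On the CPM scale this was 0.342, 0.951 and 0.563 against 1.44, 1.71 and 1.18. Each sTREM-1 library was above each CON library, although the CON libraries differed among themselves by more than the nearest libraries of the 2 groups did. Counting error alone (exact Poisson, 95%) allowed 7.65 to 23.5 counts in CON replicate 1 and 27.7 to 53.3 in CON replicate 2, so these CON libraries differed beyond counting. The log2 fold change was 1.22 ± 0.34 (SE), with an adjusted p of 0.00652 by edgeR's quasi-likelihood test, and the fold change of 2.33 had an interval of 1.44 to 3.80. P2ry6 was called under each of 12 alternatives, with log2 fold changes of 0.93 to 1.67 and adjusted p-values of 0.00106 to 0.0486. Csf1r and Flt1, which made most of the difference in the summed microglia and endothelial markers, were also higher in sTREM-1. So were the microglia markers Cx3cr1, C1qa, Trem2 and Ptprc. Fcer1g was lower and the other tested microglia markers were not called. The part of these markers in the P2ry6 result was not tested.

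The ratio of P2ry6 to its neighbour P2ry2 was 0.0177 to 0.0537 per kilobase in CON and 0.0681 to 0.0921 in sTREM-1. The difference of the log2 ratios was 1.37, with p = 0.1 in the exact permutation test, the smallest possible, and 0.15 after adjustment over the 3 ratios. P2ry6 was thus under 0.1 of the P2ry2 level per kilobase in every library of both groups. An unnamed transcript model, Gm44545, lies on the opposite strand inside P2ry6 and shares 0 exonic bases with it. Gm44545 was not among the gene symbols counted, so it has no values here.

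P2ry14, on the minus strand at chr3:59113855-59153618, had 52, 52 and 51 counts in CON and 83, 63 and 41 counts in sTREM-1. The CON libraries were nearly equal at 1.25 to 1.27 CPM, while the sTREM-1 libraries ran from 1.03 to 1.82 CPM, on both sides of CON. Its log2 fold change was 0.20 ± 0.27 (SE), with an adjusted p of 0.647 by edgeR's quasi-likelihood test. The interval of the fold change, 0.778 to 1.69, was wide and included 1.5-fold. Counting error alone allowed 66.1 to 103 counts in sTREM-1 replicate 1 and 29.4 to 55.6 in sTREM-1 replicate 3, so these libraries differed beyond counting. P2ry14 lies within Med12l, which encodes a Mediator subunit on the opposite strand, with 0 shared exonic bases. Med12l itself was lower in sTREM-1, at 8.90 CPM in CON and 6.07 CPM in sTREM-1 (log2 fold change -0.55, adjusted p = 0.000153). The sources used here do not say whether counting used the strand, so reads from the introns of one gene could have been counted for the other.

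**Figure D3:**
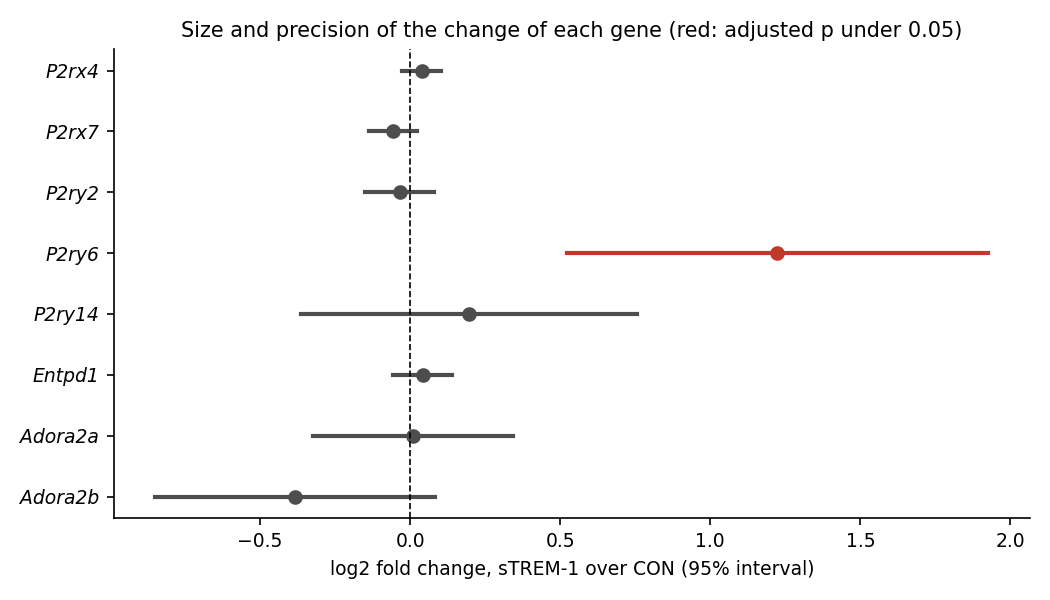
Log2 fold change of each gene between sTREM-1 and CON (points) with its 95% interval (lines), from edgeR's quasi-likelihood fit, with the gene at an adjusted p under 0.05 in red. The interval of P2ry6 lay wholly above 0, those of P2rx4, P2rx7, P2ry2 and Entpd1 were narrow and included 0, and those of P2ry14, Adora2a and Adora2b were wide and included 0.

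Entpd1, which encodes the enzyme that removes extracellular ATP, lies on the plus strand at chr19:40612366-40741602. It had 36.7, 37.7 and 37.4 CPM in CON and 37.3, 40.5 and 37.4 CPM in sTREM-1. The groups overlapped, and only sTREM-1 replicate 2 stood above the range of CON. The log2 fold change was 0.04 ± 0.05 (SE), with an adjusted p of 0.578 by edgeR's quasi-likelihood test, and the fold change had an interval of 0.961 to 1.10. By the outermost annotated starts, Entpd1 begins 132 bases from Tctn3, a gene of the ciliary transition zone that is read in the other direction. Entpd1 has 11 annotated transcripts, and which start BV2 cells use was not tested. Tctn3 was higher in sTREM-1, at 17.2 CPM in CON and 20.6 CPM in sTREM-1 (log2 fold change 0.27, adjusted p = 0.00442), while Entpd1 did not pass. The stretch between them is shown for this reason, at chr19:40612234-40612365 on the plus strand of GRCm38.p6 (RefSeq), read from Tctn3 to Entpd1, with the letters CCAAT or their complement ATTGG in capitals:
Entpd1 and Tctn3 start region: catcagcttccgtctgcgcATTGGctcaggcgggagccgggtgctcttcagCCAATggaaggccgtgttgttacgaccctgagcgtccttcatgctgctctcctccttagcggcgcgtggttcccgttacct
The stretch held 2 matches to CCAAT on either strand. Of the 32851 RefSeq promoter windows (250 bases before to 50 after a start), 37.4% held CCAAT on either strand, and among the purinergic genes it was found in 2 of 2 windows of Entpd1, 1 of 1 of Adora2b, 1 of 4 of P2ry14 and 0 of those of P2rx4, P2rx7 and P2ry2. The table matched 6 of the 8 genes, and P2ry6 and Adora2a were not searched. A match is a run of letters and was not tested as a binding site.

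Of the adenosine receptors, Adora2a, with a higher affinity for adenosine, lies on the plus strand at chr10:75316877-75334784. It had 4.88, 2.95 and 4.48 CPM in CON and 3.87, 4.57 and 3.96 CPM in sTREM-1. CON replicate 2 was the lowest library and CON replicate 1 the highest, so the sTREM-1 libraries lay within the range of CON. The log2 fold change was 0.01 ± 0.16 (SE), with an adjusted p of 0.974 by edgeR's quasi-likelihood test and an interval of the fold change from 0.800 to 1.27.

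Adora2b, the receptor that responds at higher adenosine, lies on the plus strand at chr11:62248984-62266453. It had 126, 153 and 71 counts in CON and 84, 113 and 82 counts in sTREM-1, or 3.08, 3.73 and 1.74 CPM against 1.84, 2.65 and 2.07 CPM. The CON libraries spanned the whole sTREM-1 range, with CON replicate 3 the lowest of all 6. Counting error alone allowed 55.5 to 89.6 counts in CON replicate 3 and 130 to 179 in CON replicate 2. The log2 fold change was -0.38 ± 0.23 (SE), with an adjusted p of 0.224 by edgeR's quasi-likelihood test, and the fold change had an interval of 0.555 to 1.06. With CON replicate 3 left out, Adora2b was called lower, with a log2 fold change of -0.64 and an adjusted p of 0.0248, and it was not called in any of the other 11 alternatives. The ratio of Adora2b to Adora2a was 0.546 to 1.78 per kilobase in CON and 0.668 to 0.815 in sTREM-1, with a difference of -0.37 on the log2 scale and p = 0.7 in the exact permutation test (0.7 after adjustment over the 3 ratios). Without CON replicate 2 this difference was 0.083.

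For Adora2a, P2ry14 and Entpd1, leaving out a single library turned the sign of the log2 fold change, and none of the 3 was called in any alternative. For Adora2a it was -0.18 without CON replicate 2 and -0.070 without sTREM-1 replicate 2. For P2ry14 it was -0.0057 without sTREM-1 replicate 1, and for Entpd1 -0.00018 without sTREM-1 replicate 2.

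The other genes of the pathway were taken from lists of ATP release, ATP breakdown, further receptors and downstream signalling. Among all tested genes the median log2 fold change was -0.00 and 30.5% were called. Of the 9 other P2X, P2Y and adenosine receptors, 2 were tested and neither was called. P2ry1, an ADP receptor, was at 19.9 CPM in CON and 21.2 CPM in sTREM-1, and P2rx3 at 2.68 and 2.03 CPM. P2rx1, P2rx5 and Adora1 were listed at 0 in all libraries.

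Of the genes for ATP release, 8 were tested, of which 2 were higher and 1 lower (37.5% called), with a median of 0.06. Panx1, a pannexin channel through which ATP leaves the cell, was higher at 5.59 CPM in CON and 7.43 CPM in sTREM-1 (log2 fold change 0.41, adjusted p = 0.00553). Subunits of the volume-regulated anion channel moved both ways. Lrrc8d was higher, from 110 to 121 CPM (0.14, adjusted p = 0.00104), and Lrrc8c was lower, from 25.7 to 20.0 CPM (-0.37, adjusted p = 0.000106).

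Of the 12 genes for the further breakdown of nucleotides and the removal of adenosine, 5 were tested. Of these, 1 was higher and 0 lower (20% called), with a median of 0.15. Nt5e, which encodes CD73, the enzyme after CD39, was listed at 0 in every library. Aif1 and Pycard, both genes of myeloid cells, were listed at 0 as well, so only the listing is given for Nt5e. Alpl and Acpp, on the same list of ectonucleotidases, were tested and not called. Alpl was at 29.3 CPM in CON and 29.1 CPM in sTREM-1, and Acpp at 2.22 and 1.80 CPM. Pnp, which encodes purine nucleoside phosphorylase, rose from 52.6 to 64.2 CPM (log2 fold change 0.29, adjusted p = 1.6e-06), and its reads may be shared with a near-identical copy. Ada, which encodes adenosine deaminase, was at 1.43 CPM in CON and 1.75 CPM in sTREM-1 (0.29, adjusted p = 0.429). Among the 3 tested paralogs of Entpd1 inside the cell, 1 (33.3%) was called, Entpd6, which was higher, from 18.5 to 25.9 CPM (0.49, adjusted p = 2.4e-06). Of 4 tested nucleoside transporters, 1 (25%) was lower and 0 were higher. The lower gene was Slc29a3, a carrier of lysosomes, from 66.0 to 57.2 CPM (-0.20, adjusted p = 0.000217).

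Of the genes downstream of P2X7, 7 were tested, of which 5 (71.4%) were higher and 0 lower, with a median of 0.18, against 30.5% called among all tested genes. Nlrp3, the sensor of the inflammasome, rose from 77.9 ± 1.24 to 94.9 ± 4.68 CPM (log2 fold change 0.28, adjusted p = 4.6e-07). Casp1, its protease, rose from 40.3 to 48.1 CPM (0.26, adjusted p = 4.6e-05), and Gsdmd, the pore protein that caspase-1 cleaves, from 71.9 to 81.5 CPM (0.18, adjusted p = 0.000292). Il18 (0.39) and Nek7 (0.12) were the other 2 genes called, and are named after their values were seen. Il1b, the other cytokine that caspase-1 cleaves, was at 3.99 CPM in CON and 3.32 CPM in sTREM-1 (-0.27, adjusted p = 0.210), and Pycard was listed at 0. P2rx7 itself differed by -0.06 on the same scale, as given above.

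**Figure D4:**
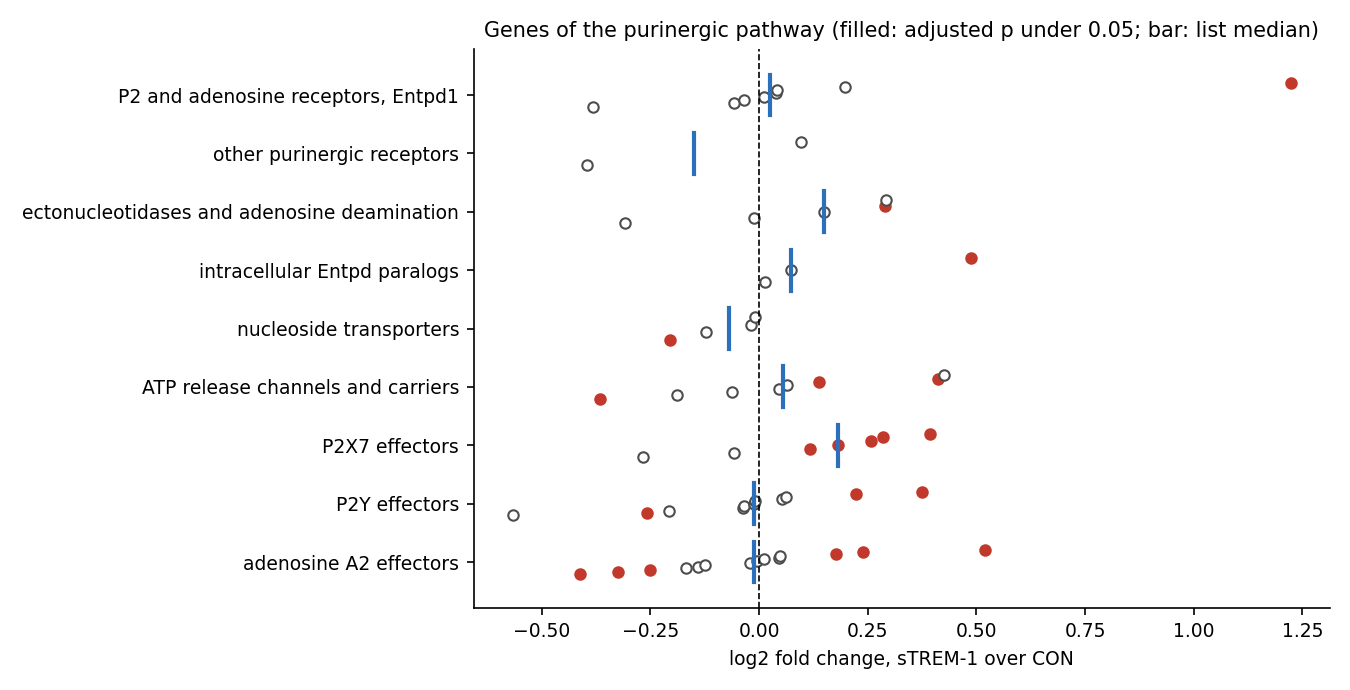
Log2 fold change between sTREM-1 and CON of each tested gene of the purinergic lists (points, filled red at an adjusted p under 0.05), with the median of each list as a blue bar and a dashed line at 0. Among the receptors and Entpd1 the single filled point is P2ry6 at 1.22, and 5 of the 7 P2X7 effectors are filled and above 0.

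Of 11 tested genes downstream of P2Y receptors, 2 were higher and 1 lower (27.3%, against 30.5% of all tested genes), with a median of -0.01. Itpr1, a calcium channel of the endoplasmic reticulum that opens on inositol trisphosphate, rose from 57.5 to 74.6 CPM (0.37, adjusted p = 5.0e-09). The inhibitory G protein subunits moved in opposite directions: Gnai2 rose from 222 to 260 CPM (0.22, adjusted p = 4.3e-08) and Gnai3 was lower, from 231 to 193 CPM (-0.26, adjusted p = 7.5e-09). Gnaq, the Gq subunit that carries the signal of P2Y6, was at 167 CPM in CON and 166 CPM in sTREM-1 and was not called.

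Of 14 tested genes downstream of adenosine A2 receptors, 3 were higher and 3 lower (42.9%, against 30.5% of all tested genes), with a median of -0.01. Gnas, the Gs subunit, was at 892 CPM in CON and 890 CPM in sTREM-1 and was not called. Among the subunits of protein kinase A, the regulatory Prkar2b rose from 19.2 to 27.5 CPM (0.52, adjusted p = 8.6e-08) and the catalytic Prkacb was lower, from 169 to 135 CPM (-0.32, adjusted p = 1.7e-10). The adenylyl cyclases Adcy7 (0.18, adjusted p = 0.000123) and Adcy9 (0.24, adjusted p = 0.0249) were higher. The cyclic AMP phosphodiesterases Pde7a (-0.25, adjusted p = 0.000530) and Pde4d (-0.41, adjusted p = 0.0147) were lower, although the groups overlapped for Pde4d.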

How the data were processed

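RNA of BV2 cells was sequenced in 3 CON and 3 sTREM-1 libraries. The authors checked reads with FastQC, quantified them with RSEM, used FPKM and edgeR, and deposited raw counts, whole numbers for each gene symbol. The submitters' processing notes also name HISAT2 2.0.4 and the human builds hg19 and GRCh38, with no role given, while the symbols are mouse. The annotation and strand setting are not given in the sources used here.

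The filter on low counts was filterByExpr with a minimum count of 10. All 6 libraries were scaled by TMM and fitted in edgeR 4.0.16 (R 4.3.3), without covariates, using its quasi-likelihood test. The standard error of a log2 fold change was its size divided by the root of the F statistic. CPM are TMM-scaled. The common coefficient of variation between libraries was 3.99%. Lists are described by counts and medians. The smallest library had 40070633 counts. P2ry6, P2ry14 and the adenosine receptors held few counts and also varied between libraries beyond counting error. Intervals on counts cover counting error only.

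The members and lists were chosen with earlier results of these data known. All 8 members are named, and of each other list the up to 3 called genes of smallest p per direction, with Nt5e, Ada, Nlrp3, neighbours of members and the 2 genes of most similar profile. Some further genes are named outside this rule, such as Gnaq, Gnas, Il1b, Alpl, Acpp, P2ry1, P2rx3 and several cell type markers. Replicate numbers did not pair the libraries (correlations of -0.018, -0.033 and -0.014). On simulated counts with 200 genes changed 1.5-fold, 13950 genes passed the filter. There edgeR recovered 79.0% of the 200, and 5.95% of its calls were false. The changed genes were drawn from all levels, so this share does not apply to genes with few counts, such as P2ry6 and P2ry14. The alternatives comprised size factors by RLE, dropping the filter, requiring at least 10 counts in every library, DESeq2 1.42.0, the exact test of edgeR, stricter thresholds, each library left out in turn, and the replicate number as a block. Coordinates and lengths are from GENCODE M21 (GRCm38).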

Additional observations from a re-analysis of the deposited data

How the results depend on the processing

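Of the 8 purinergic genes, 1 was called with RLE size factors, with no filter, with at least 10 counts in every library, with DESeq2, with edgeR's exact test, at an adjusted p under 0.01, and with at least a 1.2-fold change. Leaving out each library in turn gave 1 to 2 called genes and 0 to 1 lower. The exception was without CON replicate 3, when 2 were called and Adora2b was lower. With the replicate block, 1 of the 8 was called and P2ry6 had a log2 fold change of 1.28 (adjusted p = 0.00253). The numbers share no source, every pair's deviations correlated below 0, and the block moved the count of all called genes from 4312 to 4613. Over 12 alternatives that count ranged from 3608 to 4613. The list of nucleotide breakdown and adenosine removal had 2 called genes with the replicate block and without CON replicate 2, against 1, and the cause was not tested. P2ry6, P2ry14, Adora2a and Adora2b held 14 to 200 counts per library, and in each of them some libraries of a group differed beyond counting error, so both depth and the spread between libraries widen their intervals.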

Other observations

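The genes beside the receptors moved in some places where the receptors did not pass the test, and not in others. Among all tested genes 30.5% were called. Zswim7, which converges on Adora2b with 770 bases between them, was higher in sTREM-1, at 4.92 CPM in CON and 7.03 CPM in sTREM-1 (log2 fold change 0.51, adjusted p = 0.00111 by edgeR's quasi-likelihood test). Ift81, an intraflagellar transport gene beside P2rx7, was lower, from 18.6 to 15.0 CPM (-0.31, adjusted p = 0.00242). Specc1l, beside Adora2a, was higher at 56.9 CPM in CON and 61.4 CPM in sTREM-1 (0.11, adjusted p = 0.0456). Camkk2, beside P2rx4, was at 49.2 and 52.5 CPM (0.09, adjusted p = 0.105) and was not called. By the same test, Fchsd2 beside P2ry2 (0.00046, adjusted p = 0.997) was not called. Neither were Gucd1 beside Adora2a (0.06, adjusted p = 0.633) and Specc1 beside Adora2b (0.04, adjusted p = 0.363). Arhgef17, the gene on the other side of P2ry6, had at most 2 counts in any library.

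The tested genes whose profiles over the 6 libraries lay nearest to that of P2ry6 were Gm6158 and Gm12345, at distances of 0.385 and 0.469 on the log2 CPM scale after centring each gene on its mean. Gm12345 was higher in sTREM-1 (log2 fold change 1.37, adjusted p = 0.0241), while Gm6158 did not pass (1.10, adjusted p = 0.0983). Nearest to Adora2b were 9230102O04Rik and Rpl19-ps4, at distances of 0.240 and 0.254. These genes were picked by their profiles over the same 6 libraries, so the direction of their changes follows from the choice. The distances describe the 6 libraries and carry no test.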
